A study of Arabidopsis thaliana with 13 samples.

Results

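The 54 genes described here fell on each of the later days of vascular induction in Arabidopsis cotyledons. They were chosen from 10982 measured genes by their window means: the early window (E) was the mean of the arrays at 6 to 24 h, the middle window (M) of those at 30 to 48 h, and the late window (L) of those at 54 to 72 h, with 4 arrays each. A gene was taken when M minus E and L minus M were both at most -1 on the log2 scale and its early mean stood less than 1 above the 0 h array. Of the 55 genes that met these differences, SWEET11 was left out beforehand by name with 5 others, COR15A, PRK, RCA, SBPASE and SPCH, which did not meet them. Because these same values made the choice, the window differences of the 54 genes are given as a description, with no test.

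All material was Arabidopsis thaliana of the Col-0 accession, from seedlings kept under continuous light at 22 °C for 6 days in liquid MS medium. Cotyledons were cultured in medium with 3 agents, 1.25 mg/L of 2,4-D (an auxin), 0.25 mg/L of kinetin (a cytokinin) and 10 µM of bikinin (an inhibitor of GSK3-like kinases), and 1 array was made at each of 13 times every 6 h. No uninduced culture of matching age is among the groups used here, and no time had a replicate. The spread over the arrays of a window therefore holds both time and error.

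In this culture, known as VISUAL, mesophyll cells of the cotyledon lose their leaf character and pass through a procambium-like state to xylem and phloem cells. Leaf mesophyll cells devote much of their messenger RNA to photosynthesis and photorespiration, while xylem cells build thick secondary walls. RNA came from whole cotyledons, so fewer cells of a type and less RNA per cell cannot be told apart.

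The arrays fell into a pair of sets by level. Before centring, the median of an array lay between 5.15 and 5.35 on the 5 arrays from 0 to 24 h and between 5.82 and 5.99 on the 8 arrays from 30 to 72 h, a shift of 0.67. Every array was centred on its median, after which the median gene still differed by -0.25 between the middle and early windows and by 0.04 between the late and middle windows. In M minus E the effect of time and that of the array set cannot be told apart, whereas L minus M and all differences inside a window lie within a set. With the values as deposited, the median M minus E of the 54 genes was -0.81 beside 0.42 for all genes, all 54 remained below 0 and 18 remained at or below -1.

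The declining genes lost most of their signal over the course. Their median log2 level was 9.02 at 0 h, 8.59 in the early window, 7.18 in the middle window and 5.65 in the late window. M minus E had a median of -1.48 and a range of -3.38 to -1.02, and L minus M a median of -1.16 and a range of -2.28 to -1.001. Differences of -1 or less were found in 8.45% of all genes for the first of these comparisons and in 2% for the second. In the late against the early window the 54 genes were lower by 4.17-fold to 26.5-fold, with a median of 6.17-fold. With the values as deposited this range was 2.69-fold to 17.1-fold, with a median of 3.98-fold. In 17 genes the fall was at least 8-fold and in 5 at least 16-fold (7 and 1 with the values as deposited), and 8 of the 20 genes with the largest falls among all 10982 belong to the set. In 9 genes the late mean lay below the mean level of 4.03 at which probe sets were left out as low, so that their late values are near the low end of the scale and their folds depend on it.

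**Figure D1:**
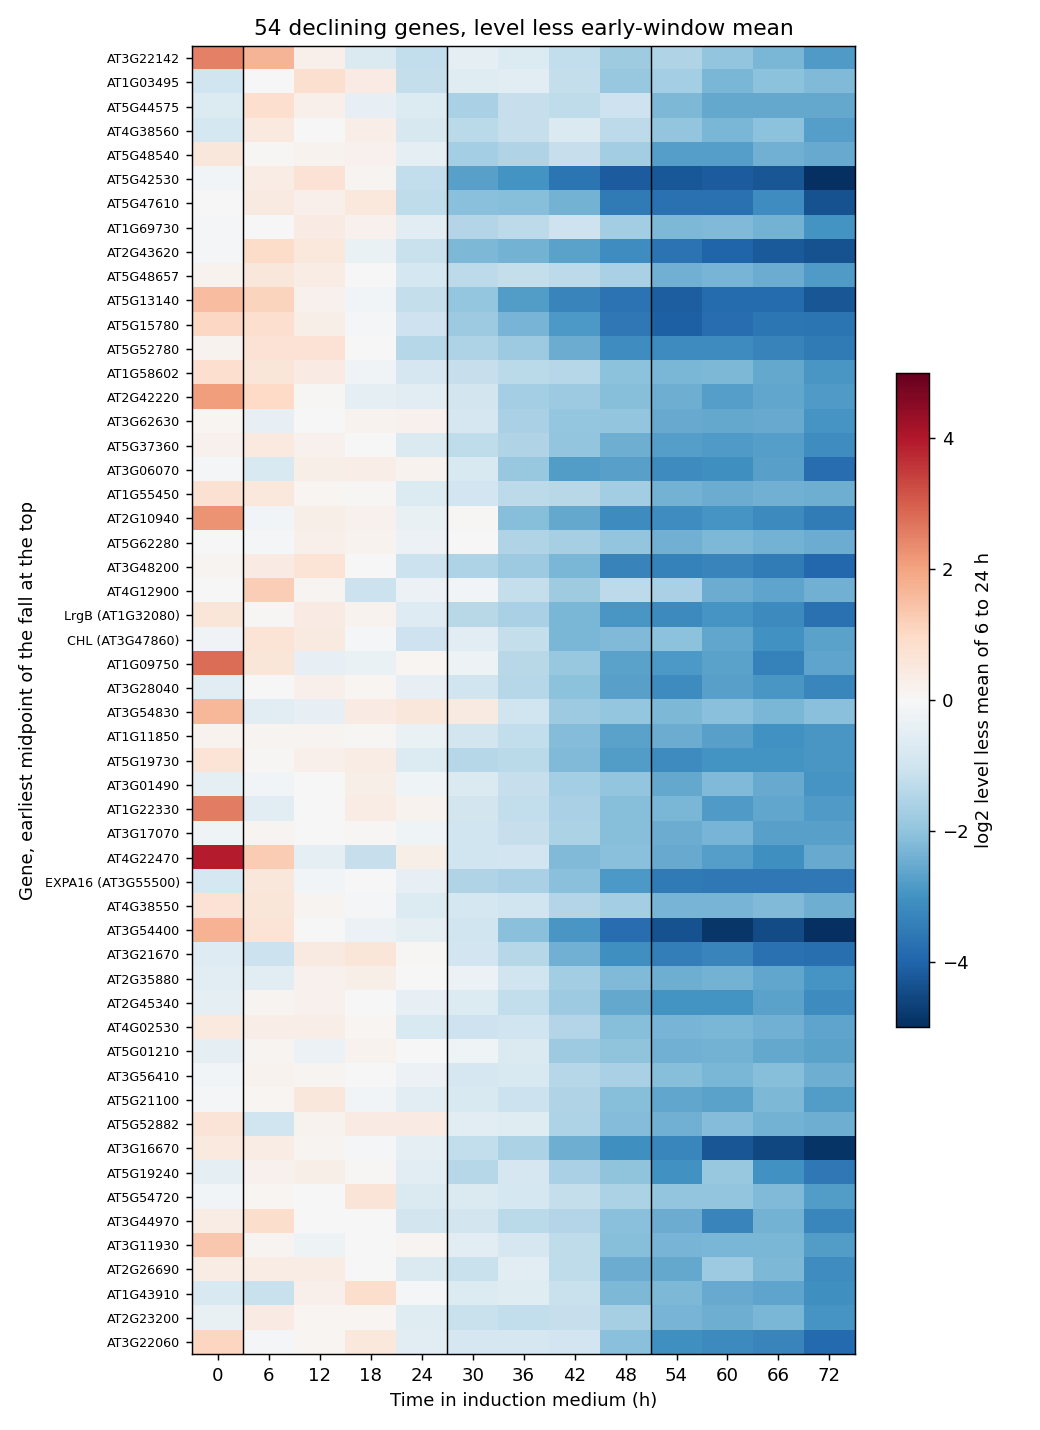
Log2 level of each of the 54 declining genes (rows) on each of the 13 arrays (columns, hours in induction medium), less the gene's mean over 6 to 24 h; vertical lines separate 0 h and the 3 windows, and rows run from the earliest to the latest midpoint of the fall. Colours stop at 5 in either direction. Every row is blue from 36 h on, and 12 rows start at 0 h at least 1 above their early mean.

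At 24 h most of the genes were already below their earlier levels. Relative to the early mean of each gene, the median over the 54 genes was 0.16 at 0 h, 0.29 at 6 h, 0.22 at 12 h, 0.05 at 18 h and -0.58 at 24 h. It was then -0.97 at 30 h, -1.23 at 36 h, -1.76 at 42 h and -2.13 at 48 h. On the last day it was -2.50 at 54 h, -2.63 at 60 h, -2.63 at 66 h and -2.92 at 72 h. The courses thus dropped at every step from 18 h to 54 h and little between 54 and 66 h, while the median of all genes stayed between -0.32 and 0.08 throughout. The step from 18 to 24 h was downward in 47 of the 54 genes with a median of -0.60, and it lies within the first array set. The step from 24 to 30 h, which crosses the sets, was downward in 47 genes as well, with a median of -0.52. In the step from 54 to 60 h 25 genes went down and the median was 0.01, and in that from 66 to 72 h 46 went down with a median of -0.34.

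The genes reached their highest value at 0 h in 22 cases, at 6 to 18 h in 31 and at 24 h in 1. All 54 had their lowest value from 54 h on, 39 of them at 72 h. The midpoint between the early and late means was crossed at a median of 36.7 h, at 30 to 48 h in 44 genes and before 30 h in 10. With the values as deposited the median was 40.8 h, with 42 genes at 30 to 48 h, 8 before 30 h and 4 after 48 h. The rule set the middle mean well below the early and well above the late mean, so a crossing at 30 to 48 h is favoured by the choice. AT3G22142 crossed it first, at 22.0 h, and AT3G22060 last, at 45.9 h. In 44 genes the drop from the early to the middle window was larger than that from the middle to the late window, and its share of the whole fall had a median of 55.2%. As M minus E crosses the array sets, this order depends on the scaling: the drop to the middle window was the larger in 34 genes under quantile normalization, in 28 with centring on named probe sets and in 12 with the values as deposited, where its median share was 39.05%. After median centring that share was 73.8% in AT5G42530 and 35.3% in AT3G22060, the highest and lowest of the set. All 4 middle arrays were below all 4 early arrays in 36 of the 54 genes (66.7%, beside 35.5% of all genes). All 4 late arrays were below all 4 middle arrays in 42 (77.8%, beside 8.61% of all genes). The genes were chosen for low M minus E and L minus M, which favours such separation, so these counts are a description.

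Of the 54 genes 5 carried a name in the annotation used: LrgB, CHL and EXPA16 by symbol, and NPF6.2 and NPF6.4 by synonym. The other 49 are given by locus, with no role. NPF6.2 was looked up after its values had been seen.

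LrgB (AT1G32080), a plastid envelope protein that carries the photorespiratory acids glycolate and glycerate, was at 10.36 at 0 h and at 9.82, 10.19, 9.93 and 9.14 from 6 to 24 h. It was at 8.37, 8.14, 7.50 and 6.86 from 30 to 48 h and at 6.59, 6.81, 6.57 and 6.03 from 54 to 72 h. Neighbouring windows did not overlap, and the level dropped at each step from 12 to 54 h. The window means were 9.77 ± 0.45 early, 7.72 ± 0.68 middle and 6.50 ± 0.33 late (SD, n = 4 arrays each), a late level 9.63-fold below the early one.

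CHL (AT3G47860), the lipocalin of the chloroplast that protects thylakoid lipids from peroxidation, was at 8.07 at 0 h and at 8.92, 8.68, 8.18 and 7.21 from 6 to 24 h. It was at 7.68, 7.05, 5.96 and 6.04 from 30 to 48 h and at 6.20, 5.67, 5.24 and 5.58 from 54 to 72 h. CHL was highest at 6 h, its windows overlapped at both borders, and it lay just inside the threshold for the late window, with L minus M at -1.01. Its late mean of 5.67 ± 0.40 was 5.97-fold below its early mean of 8.25 ± 0.76 (SD, n = 4 arrays each).

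The NRT1/PTR family (NPF) of membrane carriers, which moves nitrate, peptides and other small solutes, had 2 members in the set. NPF6.2 (AT2G26690), a nitrate carrier of leaf petioles, was at 11.11 at 0 h, at 11.13, 11.10, 10.70 and 10.03 from 6 to 24 h, at 9.63, 10.19, 9.49 and 8.27 from 30 to 48 h, and at 8.19, 8.93, 8.48 and 7.65 from 54 to 72 h. It stayed near its starting level to 12 h, went up at 36 and 60 h against the general fall, and its windows overlapped. NPF6.4 (AT3G21670) was at 6.41 at 0 h, at 5.98, 7.48, 7.64 and 7.08 from 6 to 24 h, at 6.09, 5.62, 4.65 and 3.99 from 30 to 48 h, and at 3.60, 3.76, 3.31 and 3.28 from 54 to 72 h. It was highest at 18 h, and all its late arrays were below its middle arrays. The late mean was 5.36-fold below the early mean for NPF6.2 (8.31 ± 0.54 against 10.74 ± 0.51) and 11.8-fold for NPF6.4 (3.48 ± 0.23 against 7.04 ± 0.75, SD, n = 4 arrays each). The late values of NPF6.4 lie below the low limit of 4.03, and with values below the 40th percentile raised to it, a floor chosen after seeing the data, its L minus M was -0.51 and its fold 4.66.

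EXPA16 (AT3G55500), an alpha-expansin of the family that loosens growing cell walls, was at 8.38 at 0 h and at 9.80, 9.09, 9.24 and 8.84 from 6 to 24 h. It was at 7.72, 7.61, 7.16 and 6.38 from 30 to 48 h and at 5.71, 5.65, 5.68 and 5.68 from 54 to 72 h. All early arrays were above the 0 h array, the windows did not overlap, and the last 4 arrays were level. The late mean of 5.68 ± 0.02 was 11.8-fold below the early mean of 9.24 ± 0.40 (SD, n = 4 arrays each).

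**Figure D2:**
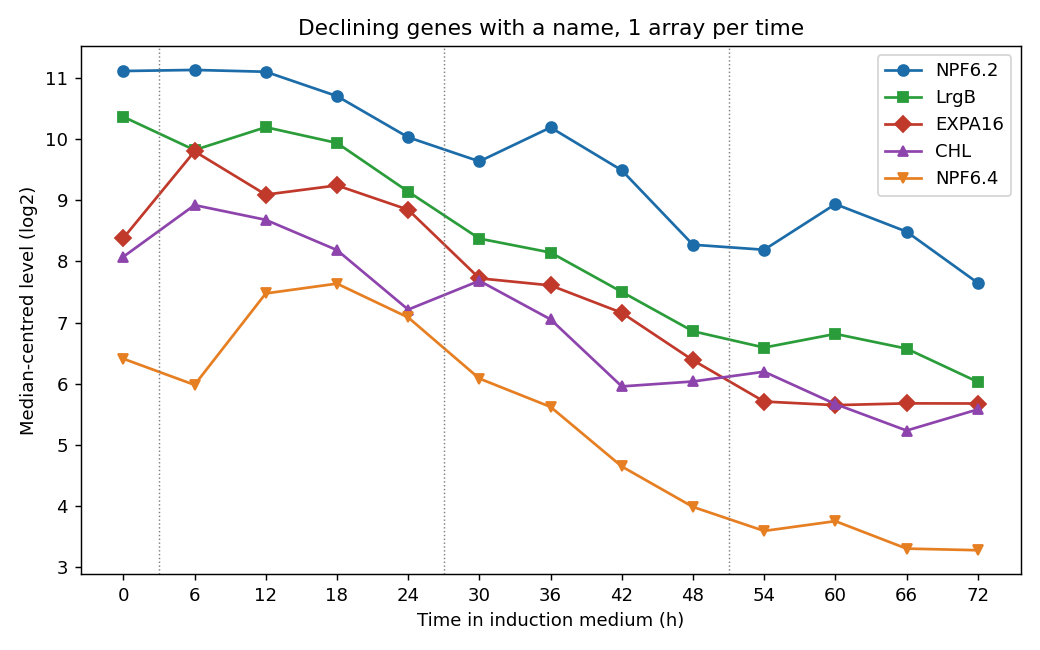
Median-centred log2 level of the 5 named declining genes against hours in induction medium, 1 array per time, with dotted lines between 0 h and the 3 windows. The late values of all 5 genes lie below their early values, EXPA16 is level from 54 h on, and NPF6.2 rises at 36 and 60 h.

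The other 49 loci hold the largest falls. AT3G54400 was at 11.90 at 0 h, at 10.83, 10.19, 9.88 and 9.72 from 6 to 24 h, at 9.15, 8.08, 7.23 and 6.35 from 30 to 48 h, and at 5.81, 5.30, 5.68 and 4.92 from 54 to 72 h. It dropped at every step to 60 h, and its late mean was 26.5-fold below the early one (5.43 ± 0.40 against 10.15 ± 0.49, SD, n = 4 arrays each). AT5G42530 was at 12.45 at 0 h, at 12.97, 13.29, 12.73 and 11.34 from 6 to 24 h, at 9.85, 9.60, 8.93 and 8.43 from 30 to 48 h, and at 8.35, 8.41, 8.32 and 6.93 from 54 to 72 h. Most of its 23.9-fold fall lay between the early and middle windows, with M minus E at -3.38, the lowest of all genes measured. AT3G16670 was at 12.65 at 0 h, at 12.52, 12.29, 12.10 and 11.72 from 6 to 24 h, at 10.94, 10.59, 9.70 and 9.09 from 30 to 48 h, and at 8.91, 7.89, 7.62 and 7.25 from 54 to 72 h. It dropped at every step of the course, with M minus E at -2.08 and L minus M at -2.16, to a late mean 18.9-fold below the early one. Its M minus E was -1.69 under quantile normalization and -1.41 with the values as deposited.

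AT2G43620 was at 9.64 at 0 h, at 10.63, 10.24, 9.36 and 8.58 from 6 to 24 h, at 7.46, 7.34, 7.03 and 6.60 from 30 to 48 h, and at 5.99, 5.68, 5.49 and 5.36 from 54 to 72 h. Its level was highest at 6 h and then dropped at each step, and its late mean was 16.8-fold below the early one. AT5G13140 was at 8.74 at 0 h, at 8.31, 7.40, 7.04 and 6.01 from 6 to 24 h, at 5.23, 4.41, 3.88 and 3.48 from 30 to 48 h, and at 3.06, 3.35, 3.35 and 2.91 from 54 to 72 h. AT5G15780 was at 8.64 at 0 h, at 8.46, 7.91, 7.55 and 6.58 from 6 to 24 h, at 5.79, 5.28, 4.76 and 4.04 from 30 to 48 h, and at 3.55, 3.81, 4.00 and 3.99 from 54 to 72 h. Both loci dropped at every step to 54 h and ended below the level of 4.03 that served as the low limit, with late means 16.2-fold and 13.8-fold below the early ones. With the floor at the 40th percentile these folds were 5.14 and 6.96, so the size of their fall rests on values at the low end of the scale. AT5G47610 and AT3G48200, at 13.3-fold and 11.5-fold, complete the 10 largest falls together with NPF6.4 and EXPA16, an order that is not exact for the loci with late means below 4.03. AT5G47610 (9.70-fold with that floor) was at 8.17 at 0 h, at 8.62, 8.44, 8.70 and 6.91 from 6 to 24 h, at 6.07, 6.03, 5.78 and 4.63 from 30 to 48 h, and at 4.42, 4.43, 5.08 and 3.82 from 54 to 72 h. AT3G48200 was at 9.79 at 0 h, at 10.04, 10.31, 9.64 and 8.57 from 6 to 24 h, at 8.11, 7.82, 7.34 and 6.31 from 30 to 48 h, and at 6.28, 6.33, 6.16 and 5.70 from 54 to 72 h. Both had their largest step of the early window between 18 and 24 h, and in both the late and middle windows overlapped.

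Other courses were less even. AT3G22060, named after its values were seen, was at 9.94 at 0 h, at 8.78, 8.95, 9.39 and 8.27 from 6 to 24 h, at 8.01, 7.99, 7.87 and 6.78 from 30 to 48 h, and at 5.77, 5.66, 5.55 and 4.96 from 54 to 72 h. Its level held from 30 to 42 h and then dropped, with L minus M at -2.18 and M minus E at -1.19, and its late mean was 10.3-fold below the early one. AT1G03495 was at 6.71 at 0 h, at 7.72, 8.48, 8.08 and 6.49 from 6 to 24 h, at 7.08, 7.13, 6.52 and 5.81 from 30 to 48 h, and at 5.98, 5.42, 5.63 and 5.49 from 54 to 72 h. It was highest at 12 h, and both its 24 h and 48 h arrays were below the next array. AT3G54830 was at 9.21 at 0 h, at 7.005, 7.14, 7.96 and 8.11 from 6 to 24 h, at 7.996, 6.57, 5.73 and 5.61 from 30 to 48 h, and at 5.30, 5.46, 5.29 and 5.46 from 54 to 72 h. After a low at 6 h it climbed back to 24 h, and its level was lost between 30 and 42 h.

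**Figure D3:**
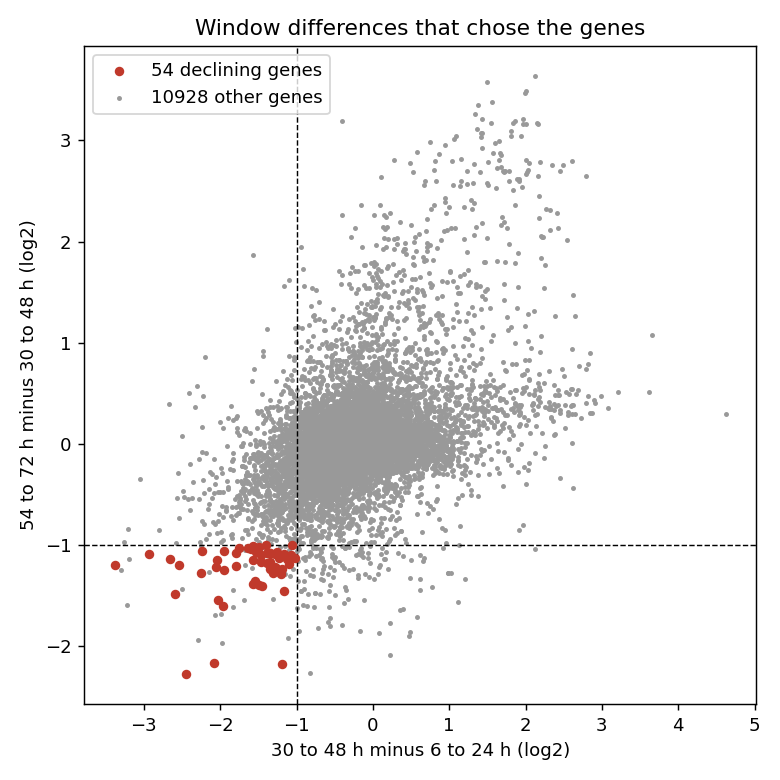
Differences of window means for each of 10982 genes, with the middle minus the early window across and the late minus the middle window up, both in log2; red points are the 54 declining genes and dashed lines the thresholds at -1. The red points fill the lower left corner by construction, and the grey points in that corner are SWEET11 and 29 genes whose early mean stood 1 or more above the 0 h array.

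The first 6 to 24 h divided the set. In 12 genes the early mean was at least 1 below the 0 h array, beside 6.73% of all genes, in 19 it was lower by less than 1, and in 23 it was higher by less than 1. The rule left out genes with an early mean 1 or more above 0 h, so these counts are shaped by the choice. The 12 were AT4G22470, AT1G09750, AT1G22330, AT3G22142, AT2G10940, AT2G42220, AT3G54400, AT3G54830, AT5G13140, AT3G11930, AT3G22060 and AT5G15780, most of them named after their values were seen. AT4G22470 had the lowest difference at -3.91, with 11.51 at 0 h and 8.89, 7.17, 6.44 and 7.90 from 6 to 24 h. It then followed the rest, with 6.61, 6.64, 5.38 and 5.51 from 30 to 48 h and 5.09, 4.86, 4.52 and 5.06 from 54 to 72 h. AT1G09750 was at 9.76 at 0 h, at 7.59, 6.58, 6.64 and 7.08 from 6 to 24 h, at 6.74, 5.57, 5.09 and 4.31 from 30 to 48 h, and at 4.096, 4.28, 3.60 and 4.33 from 54 to 72 h. AT1G22330 was at 9.19 at 0 h, at 6.09, 6.64, 7.02 and 6.79 from 6 to 24 h, at 5.72, 5.42, 5.02 and 4.503 from 30 to 48 h, and at 4.34, 3.80, 4.05 and 3.82 from 54 to 72 h. In all 3 loci the first step or steps took the level down, it was partly regained by 24 h, and a further drop followed. AT2G42220 lacked such a recovery, with 11.25 at 0 h, 10.16, 9.23, 8.71 and 8.59 from 6 to 24 h, 8.24, 7.49, 7.35 and 7.05 from 30 to 48 h, and 6.72, 6.40, 6.56 and 6.35 from 54 to 72 h. AT3G22142, with 12.50 at 0 h, was at 11.69, 10.23, 9.24 and 8.73 from 6 to 24 h, at 9.52, 9.30, 8.75 and 8.21 from 30 to 48 h, and at 8.48, 7.99, 7.70 and 7.12 from 54 to 72 h. Its early and middle windows overlapped widely, and M minus E was -1.02. The 12 genes began at a median of 9.85 at 0 h and ended at 5.13 in the late window, against 8.49 and 6.01 in the other 42. A higher level at 0 h is favoured by the way the 12 were split off. Their median midpoint was 36.7 h against 36.8 h in the others, and their median M minus E was -1.56 against -1.46.

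The order of arrays inside a window was not itself used to choose the genes, and it was tested. The tests are still not free of the choice. The rule asks for a fall from each window to the next, which in a smooth course favours a decline inside the windows. For each window the later pair of arrays was compared with the earlier pair by limma with Benjamini-Hochberg adjustment over all 10982 genes, and a gene was called when its adjusted p was under 0.05 and it changed by 1 or more (log2). A gene that declines steadily over the windows would also decline inside them, and these tests say how far it did.

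Inside the middle window nearly all declining genes had lower values at the end than at the beginning. The rule asks for a fall both into and out of this window, so a smooth course would show this by the choice. The excess over all genes given here follows in part from it. At 42 and 48 h against 30 and 36 h, 50 of the 54 genes were lower (92.6%, beside 63.8% of all genes), with a median difference of -0.94 and a range of -1.83 to 0.23, while the median of all genes was -0.08. A difference of -1 or less was found in 26 of the 54 and in 1.47% of all genes, and both later arrays were below both earlier ones in 48, beside 40.2% of all genes. No member was called, and neither was any other gene (0% of all genes); the smallest adjusted p by limma was 0.0518, in AT5G01210. At an unadjusted p under 0.05, 35 of the 54 were lower and 0 higher, beside 12.1% and 2.37% of all genes. This count rested in part on single arrays, being 17 without the 48 h array and 20 without the 30 h array. AT5G01210 was at 7.26 and 7.03 at 42 and 48 h, against 8.83 and 8.32 at 30 and 36 h, after early values of 9.18, 8.78, 9.24 and 9.03 without a fall. When the fit held just the 8 arrays from 30 h on, limma called 9 of the 54, beside 0.428% of all genes.

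Those 9 were CHL, NPF6.4, AT1G11850, AT2G35880, AT4G22470, AT5G01210, AT5G19730, AT5G52780 and AT5G52882, with adjusted p by limma of 0.0364 to 0.0490. In CHL the levels were 5.96 and 6.04 at 42 and 48 h, against 7.68 and 7.05 at 30 and 36 h, a difference of -1.37. In NPF6.4 they were 4.65 and 3.99, against 6.09 and 5.62, a difference of -1.54. These loci, other than CHL and NPF6.4, were named after their values were seen. Without the 36 h array 3 members were called in the fit over all arrays, and without the 6 h or the 12 h array 1.

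In 4 genes the mean of 42 and 48 h was not below that of 30 and 36 h. AT5G44575 was at 7.28 and 7.52 at 42 and 48 h, against 6.94 and 7.42 at 30 and 36 h, and AT4G38560 was at 7.84 and 7.27, against 7.23 and 7.44. AT5G48540 was at 5.63 and 5.05, against 5.09 and 5.31, and AT1G69730 at 7.01 and 6.32, against 6.58 and 6.75. None of the 4 thus had a lower later pair in the middle window, though AT4G38560, AT5G48540 and AT1G69730 dropped from 42 to 48 h. AT5G44575 and AT4G38560 had already dropped inside the early window, to 7.86 and 7.76 at 24 h.

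Inside the late window the change was smaller. The step from 66 to 72 h was still downward in 46 of the 54 genes, with a median of -0.34. At 66 and 72 h against 54 and 60 h the median difference of the 54 genes was -0.23, with a range of -0.97 to 0.32, beside -0.01 for all genes. The difference between the pairs was below 0 in 45 of the 54 (83.3%, beside 53.2% of all genes), and 0 of the 54 reached -1. Both later arrays were below both earlier ones in 22 of the 54, a larger share than the 22.6% of all genes. limma called 0 members and 0 genes (0% of all genes), with the smallest adjusted p among members at 0.828. At an unadjusted p under 0.05, 2 members were lower and 0 higher, beside 2.3% and 2.97% of all genes. The 2 were AT3G16670, at 7.62 and 7.25 at 66 and 72 h against 8.91 and 7.89 at 54 and 60 h, and AT5G19240, at 6.46 and 5.94 against 6.49 and 7.62.

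The difference between the middle and the late window was tested too, in a contrast added after these values were seen. The drop inside the middle window exceeded that inside the late window in 49 of the 54 genes, by a median of 0.68 in size (-0.68, beside -0.09 for all genes). The rule asks for a fall both before and after the middle window, but for none after the late one. In a smooth course the choice therefore favours this order, and an excess over all genes follows in part from it. limma called 0 members and 0 genes (0% of all genes), and at an unadjusted p under 0.05 13 members were lower and 0 higher, beside 6.73% and 1.98% of all genes. That count was 4 without the 48 h array, 6 without the 30 h or the 66 h array and 22 without the 42 h array, 7 with the values as deposited and 20 with the 8 arrays of 30 to 72 h. The smallest adjusted p among members was 0.447.

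**Figure D4:**
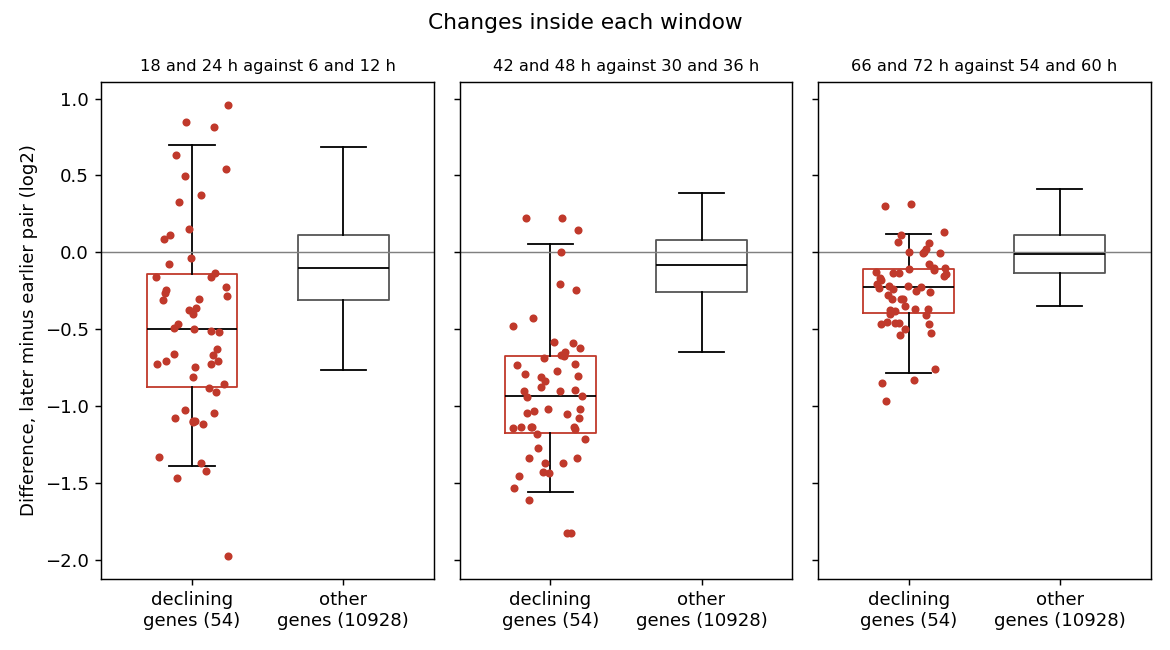
Log2 difference of the later minus the earlier pair of arrays inside each window; red points are the 54 declining genes, and boxes give the median and quartiles, with whiskers at the 5th and 95th percentiles, for these and for the 10928 other genes. The declining genes lie lowest in the middle panel, with a median of -0.94, and close to 0 in the right panel, with a median of -0.23.

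Inside the early window the genes were mixed. At 18 and 24 h against 6 and 12 h the median difference of the 54 genes was -0.50, with a range of -1.98 to 0.96, beside -0.10 for all genes. It was below 0 in 43 of the 54 (79.6%, beside 63.3% of all genes), and at or below -1 in 12, beside 2.35% of all genes. Both later arrays were below both earlier ones in 26 of the 54, a larger share than the 36.5% of all genes. limma called 4 members lower and 0 higher, beside 1.42% of all genes lower and 1.16% higher. At an unadjusted p under 0.05, 18 of the 54 were lower and 2 higher, beside 16.8% and 8.36% of all genes. Much of this rested on the 24 h array: without it the median of the 54 genes was -0.17 and 9 were lower at that p. Without the 6 h array 9 were lower as well, and without the 18 h array 28.

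AT3G22142 was at 9.24 and 8.73 at 18 and 24 h, against 11.69 and 10.23 at 6 and 12 h, a difference of -1.98 (SE 0.42, adjusted p = 0.0307 by limma). This locus had already dropped from its 0 h level of 12.50, and between 24 and 30 h it went up to 9.52. AT2G43620 was at 9.36 and 8.58, against 10.63 and 10.24, a difference of -1.47 (SE 0.26, adjusted p = 0.0204 by limma). AT5G44575 was at 8.14 and 7.86, against 9.41 and 8.80, a difference of -1.10 (SE 0.23, adjusted p = 0.0300 by limma). AT1G58602 was at 9.13 and 8.44, against 9.89 and 9.72, a difference of -1.02 (SE 0.25, adjusted p = 0.0443 by limma). The number called depended on single arrays: it was 0 without the 6 h or the 24 h array, 8 without the 12 h array, 15 without the 18 h array, 2 without the 30, 54 or 60 h array and 1 without the 66 or 72 h array. Within the 5 arrays of 0 to 24 h alone, a fit added later, it was 0.

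A 24 h pattern was looked for beside the window means and a common slope, over the 12 arrays from 6 h on, since plants can keep a daily rhythm in constant light. limma's F test called 0 of the 54 and 1 of all genes (0.00911%), at an adjusted p under 0.05 and an amplitude of at least 0.5. At an unadjusted p under 0.05 there were 13 of the 54, beside 4.91% of all genes, and the smallest adjusted p among them was 0.528. The amplitudes were 0.04 to 0.83 on the log2 scale with a median of 0.22, beside 0.15 for all genes. The largest was that of AT5G47610, at 0.83, and NPF6.2, with its rises at 36 and 60 h, had 0.51. With linear and quadratic time in place of the window means, 1 member was called.

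Near the thresholds the set graded into its surroundings. For M minus E, AT3G22142 at -1.02, AT1G03495 at -1.06 and AT3G54830 at -1.08 lay just inside, and AT3G23530 at -0.99, AT3G16850 at -0.98 and AT2G23680 at -0.97 just outside, 72 genes failing this limit alone. For L minus M, AT1G03495 at -1.001, AT4G02530 at -1.002 and CHL at -1.01 lay just inside. Just outside were pEARLI4 at -0.99, NdhL, a subunit of the chloroplast NDH complex, at -0.98, and AT1G33610 at -0.98, with 758 genes failing this limit alone. For the early window against 0 h, AT1G03495 at 0.98, AT4G38560 at 0.89 and EXPA16 at 0.86 lay inside. AT5G44580 at 1.04, AT3G46080 at 1.103 and UGT76E11 at 1.12 lay outside, with 29 genes failing this limit alone. AT1G03495 lay near all 3 limits.

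A further probe set was present for 3 of the 54 genes, and none of them met the limits. For AT3G56410 it lay at a mean level of 7.73 with M minus E at 0.02 and L minus M at -0.00. For AT4G38550 it lay at 6.39 with 0.24 and 0.20, and for AT5G01210 at 4.46 with -0.71 and -0.45. The 2 probe sets of AT3G56410 and of AT4G38550 therefore disagreed, and those of AT5G01210 differed in size.

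AT4G38550 and AT4G38560 are next to each other in the TAIR10.1 annotation and are both in the set. AT4G38550 was at 11.46 at 0 h, at 11.33, 10.84, 10.67 and 10.05 from 6 to 24 h, at 9.86, 9.72, 9.25 and 9.03 from 30 to 48 h, and at 8.40, 8.39, 8.53 and 8.26 from 54 to 72 h. AT4G38560 was at 7.68 at 0 h, at 9.06, 8.59, 8.89 and 7.76 from 6 to 24 h, at 7.23, 7.44, 7.84 and 7.27 from 30 to 48 h, and at 6.59, 6.29, 6.53 and 5.83 from 54 to 72 h. The levels of the first dropped at each step to 48 h, whereas those of the second were above 0 h through the early window and showed no steady drop in the middle one. Of 53 measured genes next to a member these 2 were members themselves, and the others had a median M minus E of -0.35 and L minus M of 0.02. Chromosome 3 held 17 of the 54 genes (31.5%, beside 20.1% of all genes), chromosome 5 held 16 (29.6%, beside 23.1%), chromosome 1 held 9 (16.7%, beside 25.8%), chromosome 2 held 7 (12.96%, beside 14.8%) and chromosome 4 held 5 (9.26%, beside 14.9%).

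Leaf programmes with known roles were read from 13 lists of 191 genes, of which 32 were measured and 0 are in the set. Among the measured genes are SWEET11, COR15A, PRK, RCA, SBPASE and SPCH, which were left out of the set by name. SWEET11 alone of them met the limits, so the 0 follows in part from the choice. Between the early and middle windows 8.3% of all genes were called lower and 5.11% higher, and between the middle and late windows 1.47% were called lower and 3.91% higher. A small part of each list was measured: 2 of 14 antenna, 4 of 22 photosystem and 3 of 19 Calvin cycle genes. For chlorophyll synthesis it was 2 of 13 and for photorespiration 4 of 13, so the counts do not stand for whole programmes. The antenna list, proteins that bind chlorophyll to harvest light, had 2 of 2 measured genes lower in the middle window, LHCB4.1 and LHCB4.2. The photosystem list had 3 of 4 lower, PSAN, PSAE-1 and PSBW, and the Calvin cycle list 3 of 3, PRK, RCA and SBPASE. The chlorophyll synthesis list had 2 of 2 lower, PORB and CHLM, and the photorespiration list 3 of 4, GLDT, HPR and GLYK. No gene of these 5 lists was called in the late against the middle window. Apart from genes left out by name, a listed gene that met all 3 limits would belong to the set. The absence of late calls therefore restates in part that 0 are in the set. PSAE-1 and PSBY had adjusted p under 0.05 there (0.0194 and 0.00983 by limma) but missed the size limit, with L minus M at -0.89 and -0.62.

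The median M minus E and L minus M were -1.48 and -1.16 in the declining genes. These genes were chosen for values of at most -1 in both, and the lists hold none of them. A difference in L minus M between the set and the lists therefore follows in part from the choice. In the lists M minus E was -1.86 for the antenna, -1.77 for the photosystem, -2.15 for the Calvin cycle, -1.66 for the chlorophyll synthesis and -1.49 for the photorespiration list. L minus M was -0.49, -0.65, -0.53, -0.35 and -0.24 in the same order. Beside LrgB, which carries photorespiratory acids, stand GLDT, HPR and GLYK, enzymes of that pathway: GLDT was lower by 3.55-fold, HPR by 3.28-fold and GLYK by 2.41-fold in the middle window (adjusted p by limma 7.88e-05, 0.000876 and 0.000743). In the late against the middle window LrgB had -1.22, GLDT -0.08, HPR -0.39 and GLYK -0.66. With the values as deposited, 1 of 2 chlorophyll and 2 of 4 photorespiration genes were still lower in the middle window, and the antenna, photosystem and Calvin counts stayed.

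**Figure D5:**
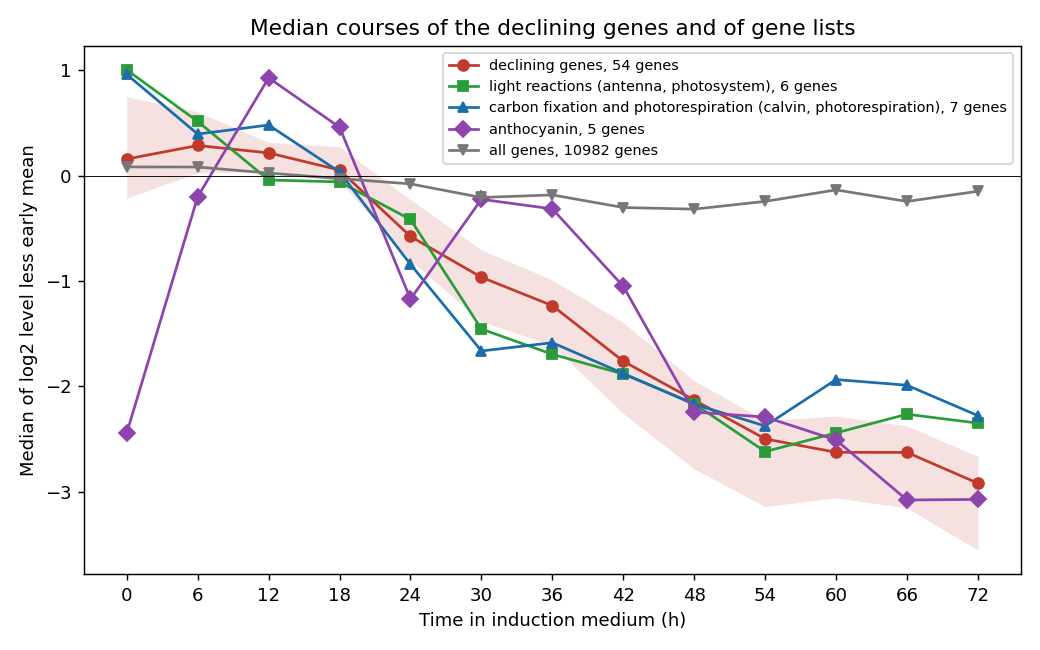
Median log2 level, less each gene's mean over 6 to 24 h, of the 54 declining genes (shading: quartiles), of 6 light reaction genes, of 7 carbon fixation and photorespiration genes, of 5 anthocyanin genes and of all 10982 genes, against hours in induction medium. At 30 h the declining genes stand at -0.97 and the light reaction genes at -1.46, and at 72 h the declining genes stand at -2.92 and the light reaction genes at -2.35. The declining genes were chosen for a fall from the middle to the late window, which favours their lower late position.

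Of the anthocyanin synthesis list 3 of 5 genes had lower late than middle levels and 0 had lower middle than early levels by these calls. DFR, the reductase of dihydroflavonols, was lower by 4.81-fold, UGT75C1 by 3.77-fold and UF3GT by 3.60-fold (adjusted p by limma 0.0250, 0.0221 and 0.0223). Of the cold response list 3 of 5 were lower in the middle window, COR15A, KIN2 and COR47, and 0 were called in the late window. With the values as deposited COR47 was not called. The clock list had 1 gene measured, GI, which was not called in either comparison.

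Markers of other cell types were thinly covered, with 0 measured genes in the cuticle and epidermis list and in the xylem list. In the stomatal lineage list 1 of 2 was lower in the middle window, SPCH, which was not called with the values as deposited. In the guard cell list GC1, the 1 gene measured, was higher in the late against the middle window by 2.77-fold (adjusted p = 0.0126 by limma). Its linear signal was 2051 at 0 h, 210 to 705 in the early window, 319 to 720 in the middle and 1225 to 1935 in the late window, and with the values as deposited it was called higher in the middle window too. In the phloem list CLE45 and OPS were higher in the middle window, by 3.32-fold and 2.75-fold. The early mean of CLE45, at 3.01, lay below the low limit of 4.03, so the size of this rise depends on the low end of the scale. Over the alternative settings its M minus E lay between 0.13 and 2.40. CLE45 was higher again in the late window by 3.47-fold. SWEET11, a sucrose carrier, was lower in both windows, though not in the middle window with the values as deposited. The summed linear signal of the mesophyll lists was 1084 to 2054 in the early, 323 to 485 in the middle and 249 to 302 in the late window for the antenna, and 2203 to 6506 early, 777 to 1231 middle and 590 to 825 late for the Calvin cycle. Their part in the fall of the 54 genes was not tested.

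The families of the named transporters and the expansin, looked up after the set was seen, gave calls in both directions. Of the 8 other NPF genes measured, NPF3.1 was lower in the middle window by 9.83-fold (adjusted p = 0.000342 by limma), with L minus M at -1.24 and an adjusted p of 0.129 by limma. NPF3.1 thus met both limits for the falls. It was outside the set because its early mean of 9.91 stood more than 1 above its 0 h level of 8.77. NPF4.4 was higher in the late window by 3.19-fold (adjusted p = 0.000232 by limma). Of the 7 other EXPA genes measured, EXPA20 and EXPA4 were higher in the middle window by 2.31-fold and 2.11-fold, and EXPA24 was lower by 2.05-fold, a call lost under quantile normalization, centring on named probe sets and the values as deposited. With the values as deposited, NPF4.3, NPF4.4 and EXPA15 were called higher in the middle window as well, NPF4.3 also under quantile normalization.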

How the data were processed

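The authors deposited 1 table of log2 values (a base assumed here from their range) of 38408 probe sets for 13 arrays, 1 per time. How they were normalized and summarised is not given in the sources used here, GCOS is named in the submitters' processing notes without a role, and precision is limited by the number of arrays. The platform annotation gave 1 gene to 16722 probe sets, several to 759 and none to 20927, and 16574 matched TAIR10.1.

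Arrays were centred on their medians, the 30% of probe sets with the lowest means were left out and the probe set with the highest mean was kept per gene, leaving 10982 genes. limma 3.58.1 in R 4.3.3 fitted window means (9 residual degrees of freedom), means of array pairs (6) and a 24 h pattern (6), with an intensity trend, and its p-values measure the spread around these means, since no time was repeated. The window comparisons, the comparisons inside each window and the 24 h pattern were tested on simulated data. Of simulated log2 changes of 1, 40.3% were recovered inside the middle, 35.8% inside the late and 37.3% inside the early window. Of changes of 2, 95.5% to 100% were recovered there. For the 24 h pattern 28% of amplitudes of 0.5 and 90% of amplitudes of 1 were recovered. A gene without a call may therefore still have changed.

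Members and lists were chosen with earlier results of these data known. Named genes were members with a symbol, the 10 largest falls, the 3 genes on each side of each limit, called members, and up to 3 called genes of each list; others are said to be. The alternatives were other centrings, filters and floors, the mean of probe sets, fewer arrays and each array left out. Sequences and promoter motifs were not analysed here.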

Additional observations from a re-analysis of the deposited data

Results flagged for a closer look

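Among 57 windows of the 19 genes named by rule, 3 had an array that stood apart from the other 3 by Dixon's criterion, which chance alone meets in about 1 window in 20. AT5G42530 was at 6.93 at 72 h, and the nearest other array of its late window was at 8.32. AT5G44575 was at 6.32 at 54 h, and the nearest other array of its late window was at 5.99. AT5G47610 was at 6.91 at 24 h, and the nearest other array of its early window was at 8.44.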

How the results depend on the processing

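The size of the set rests on the scaling and on single arrays. With the values as deposited 22 genes met the limits, 18 of them among the 54, and with each array left out in turn 25 to 72 did, 25 without the 30 h array (22 of them shared). Quantile normalization gave 53 genes (49 shared) and centring on named probe sets 50 (44 shared). Of members called at 42 and 48 h there were 2 with a floor at the 20th percentile, 1 with the lowest 50% left out, 1 with no filter, 9 with the 8 arrays of 30 to 72 h and 0 to 3 with an array left out. At 18 and 24 h there were 1 with a floor at the 40th percentile, 2 with quantile normalization, 2 with the values as deposited, 0 with the 5 arrays of 0 to 24 h and 0 to 15 with an array left out. At 66 and 72 h 0 were called in each setting. For the middle less the late window 0 to 1 were called with an array left out, and 1 for the 24 h pattern with linear and quadratic time. Outside the set, 861 genes were lower in the middle against the early window, 527 with centring on named probe sets, 571 with the lowest 50% left out, 1644 with no filter, 133 with the values as deposited and 708 to 1207 with an array left out; 561 were higher, 1821 with the values as deposited. In the late against the middle window 123 were lower, 72 with a floor at the 40th percentile and 57 to 228 with an array left out (64 without 30 h, 57 without 36 h, 228 without 48 h, 80 without 66 h and 59 without 72 h). The floor at the 40th percentile, the 5-array fit and the middle less late contrast were chosen after seeing the data. The cause of these shifts was not tested. No paired analysis was possible because the labels give no replicate numbers.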
